A study of Sus scrofa with 3 samples.

Results

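The genes described here encode plasma membrane and lysosomal carriers of sugars, amino acids and monocarboxylates. They were the 66 genes of type mRNA, of 22826, whose deposited name belongs to the solute carrier (SLC) families 1, 2, 3, 5, 7, 16, 36, 38 or 43. RNA-Seq was made from the visceral adipose tissue (VAT, here retroperitoneal fat) of male Wuzhishan miniature pigs, which were 6 to 7 months old on arrival and all groups ate the HFC diet, rich in fat and cholesterol, for 12 weeks. IM pigs were intact and had skin incisions only, CM pigs were castrated, and CMT pigs were castrated and injected each week with 10 mg/kg testosterone propionate in corn oil. Per the labels, RNA of 4 to 6 pigs per group was mixed into 1 pool and sequenced as 1 library, so the 3 libraries have no replicates, and animals cannot be told apart from groups. There was no intact group on a normal diet. The design asks which genes differ when testosterone is removed (CM versus IM), when it is given back (CMT versus CM), and between replaced and intact pigs (CMT versus IM).

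Carriers set which nutrients enter or leave a cell. SLC2 proteins (GLUT) let hexoses pass down their gradient, and SLC2A4 (GLUT4) is the one that insulin moves from stored vesicles to the surface of adipocytes and muscle fibres. SLC5 proteins couple sugars, vitamins or other solutes to sodium. Several SLC16 proteins (MCT) carry lactate, pyruvate and ketone bodies, which matters in fat because adipocytes release lactate, and others carry other solutes. SLC1, SLC7, SLC36, SLC38 and SLC43 proteins carry amino acids, and SLC3 proteins are the heavy chains that hold several SLC7 carriers in the membrane.

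Levels are given in UQRPKM, which is proportional to the reads on a gene per kilobase of its length, divided by an upper quartile of read counts in that library. A ratio is the log2 ratio of UQRPKM between libraries. A gene was called higher or lower at a 1.5-fold ratio with at least 1 UQRPKM in both libraries. Intervals are exact 95% Clopper-Pearson intervals from the recovered reads, given as low to high on the log2 scale. They cover counting error only and compare libraries, not conditions. Recovered reads on mRNA genes lay between 13449107 and 14844063 per library. The 3 comparisons share libraries with each other, so a library with an unusual value enters 2 of them.

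The tissue label was checked against marker genes. ADIPOQ stood between 63873 and 74928 UQRPKM and PLIN1 between 12504 and 18587, which are levels of adipose tissue. The libraries also differed in markers of other tissues. The 16 liver markers other than APOA1 summed to 61.1 (IM), 9461 (CM) and 54.9 (CMT) UQRPKM, and all 16 were highest in CM. APOA1 itself, left out after its values were seen, had 2539, 2339 and 1714 UQRPKM. The 17 skeletal muscle markers summed to 194, 162 and 7855 UQRPKM, with 14 of them highest in CMT and 3 at 0 throughout. The 8 mesothelial markers summed to 124, 235 and 549. Kidney markers were near 0, with 7 of 9 at 0 in every library. In bulk tissue, fewer cells of a type and less RNA per cell cannot be told apart.

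Of the 66 transporter genes, 44 reached 1 UQRPKM in all libraries, 50 were above 0 in all, and 8 were listed at 0 in all. Among the 44, levels in IM ran from 1.09 UQRPKM (SLC5A9) to 1280 (SLC5A6), as the plot of levels shows. The most abundant was SLC5A6, the sodium-dependent carrier of biotin and pantothenate, with 1280 (IM), 1048 (CM) and 1061 (CMT) UQRPKM. It lay above 96.9% of mRNA genes in IM. SLC1A5 (ASCT2), a glutamine and neutral amino acid exchanger, followed with 1245, 1078 and 1017 UQRPKM. SLC16A1 (MCT1), SLC3A2 (the heavy chain 4F2hc, or CD98) and SLC38A10 stood between 332 and 569 UQRPKM in every library. SLC1A3, SLC36A2, SLC43A2, SLC2A1 and SLC2A4 completed the 10 highest means. Of these 10 genes, only SLC2A1 and SLC2A4 differed by 1.5-fold or more between any of the 3 libraries.

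**Figure D1:**
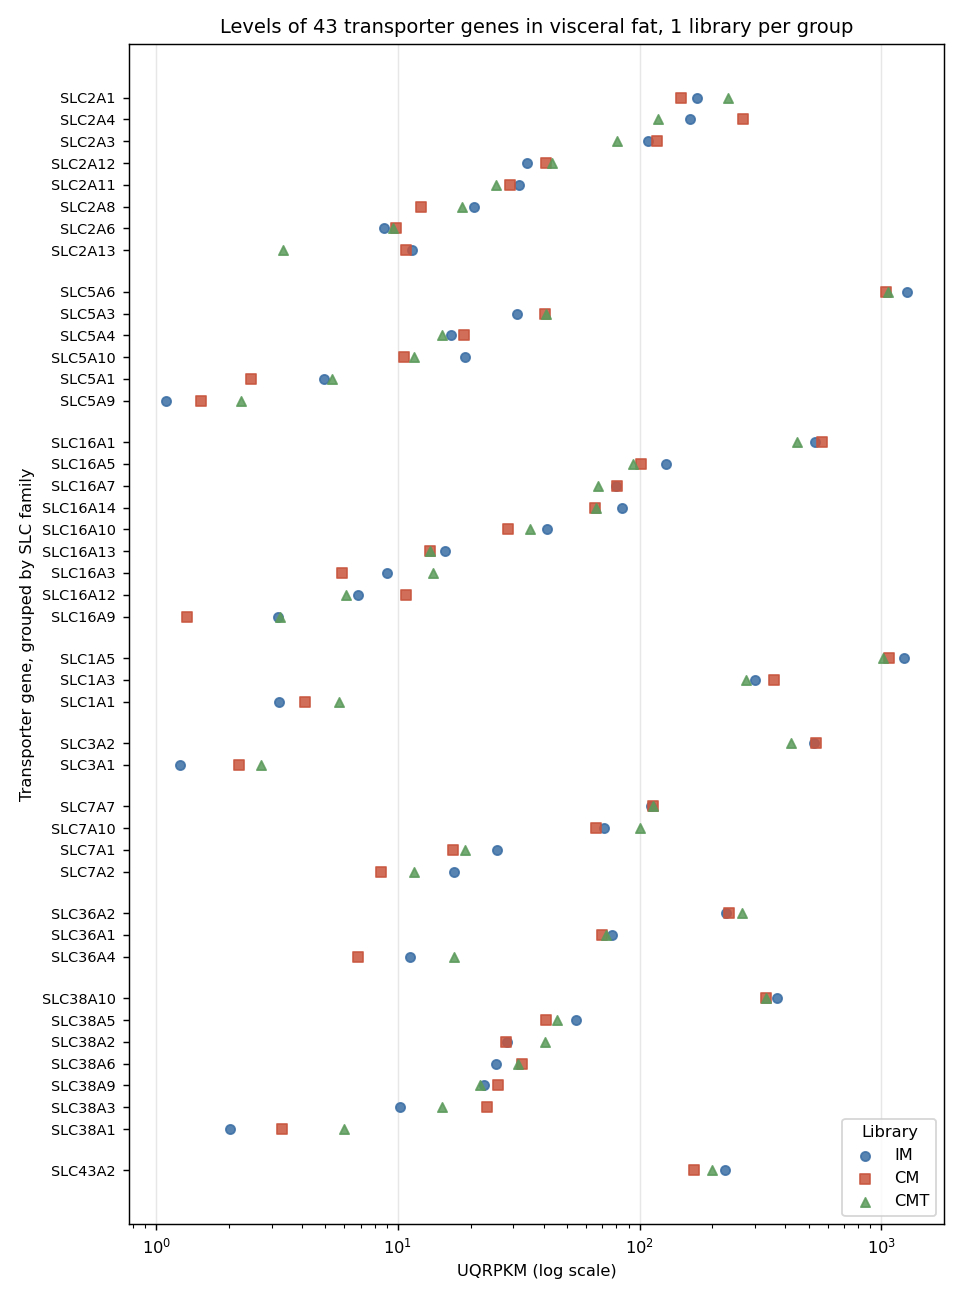
Levels of 43 of the transporter genes with at least 1 UQRPKM in every library, on a log axis in UQRPKM, grouped by family and ordered by mean level within it. Each point is 1 library of pooled RNA. SLC5A6 and SLC1A5 lie above the other genes in all libraries, and the points of SLC2A4, SLC2A13, SLC36A4 and SLC38A1 lie far apart.

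In CM versus IM, 5 of 45 transporter genes with enough signal were called higher and 8 lower, or 28.9% in either direction. The same rule called 18.8% of all mRNA genes. By direction, 8.38% of all mRNA genes were called higher and 10.4% lower. Adding an exact binomial test on the reads, which compares libraries, left 2 higher and 1 lower, beside 4.38% and 5.76% of all mRNA genes. In either direction that was 6.67% beside 10.1%. The transporters had fewer reads, with a median of 349 over the 3 libraries beside 646 for all mRNA genes that reached 1 UQRPKM in all. The median ratio of the transporters was -0.02, beside -0.06 for all mRNA genes, and it turned positive when the libraries were scaled by total reads (0.03) or by the median ratio (0.04).

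In CMT versus CM, 7 of 44 transporter genes were called higher and 4 lower, while the rule called 9.53% and 9.97% of all mRNA genes. The exact test left 4 and 2, beside 5.06% and 5.56%. In either direction the fold rule called 11 of 44 beside 19.5% of all mRNA genes, and with the exact test 13.6% beside 10.6%. The median ratio was 0.04, beside -0.02 over all genes. In CMT versus IM, 7 of 45 were called higher and 3 lower, beside 8.81% and 11.9% of all mRNA genes, and the exact test left 1 of each, beside 4.58% and 7.37%. In either direction these were 22.2% beside 20.7%, and 4.44% beside 11.9% with the exact test. The median there was -0.12, beside -0.08. Counting intervals excluded 0 for 4 of 13 calls of CM over IM, for 8 of 11 of CMT over CM, and for 3 of 10 of CMT over IM.

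**Figure D2:**
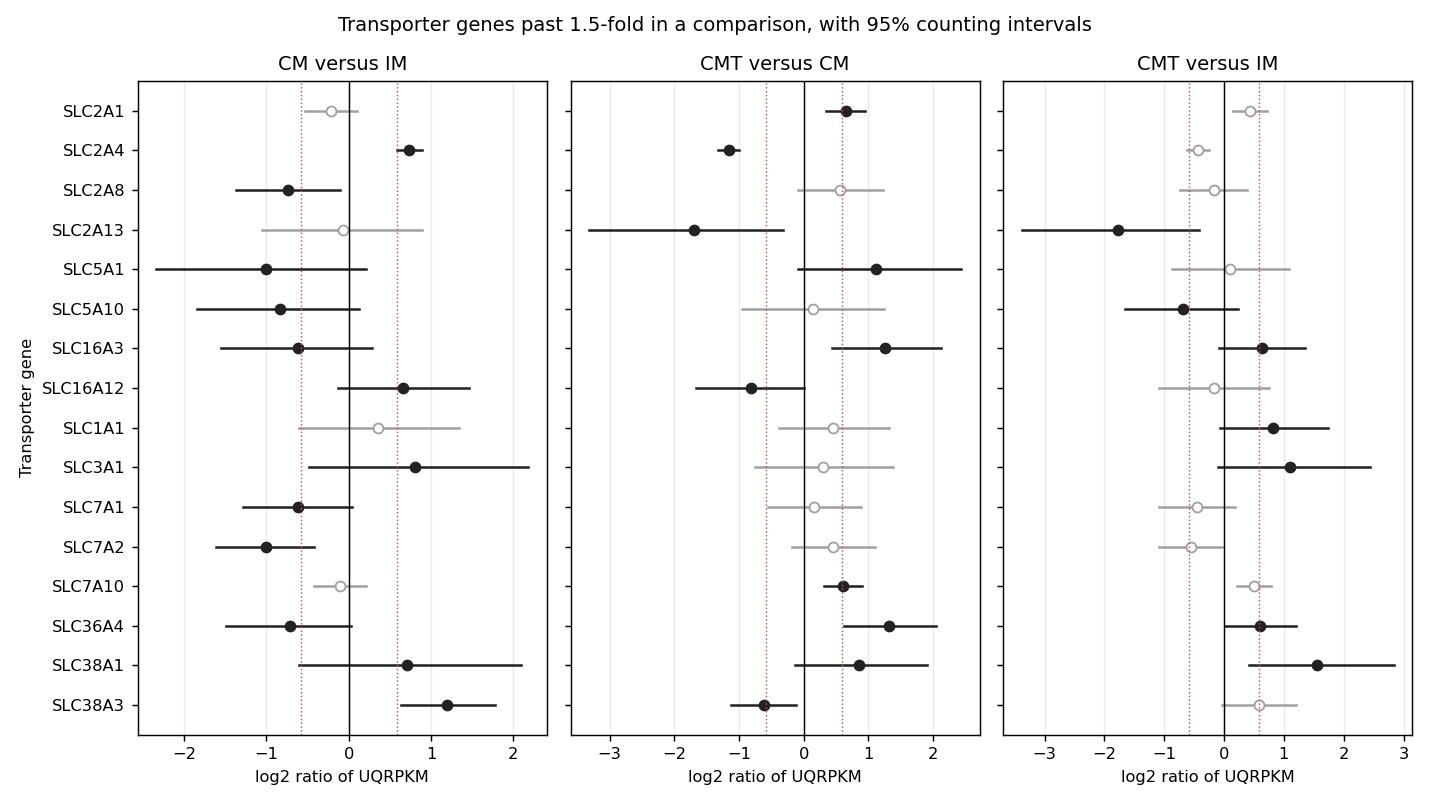
Log2 ratios of UQRPKM for 16 of the transporter genes that passed 1.5-fold in a comparison and had at least 30 recovered reads in all. Points are ratios, lines are exact 95% counting intervals, filled points passed the rule in that panel, and dotted lines mark a 1.5-fold ratio. SLC2A4 has the narrowest interval and lies to the right of 0 for CM over IM and to the left in CMT versus CM.

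Among sugar carriers, SLC2A4 differed most clearly. It had 161 (IM), 268 (CM) and 119.5 (CMT) UQRPKM, from 585, 928 and 426 reads. CM was the highest library and CMT the lowest. The log2 ratio was 0.74 (0.58 to 0.89) in CM versus IM, which is 1.66-fold, and -1.16 (-1.33 to -0.996) in CMT versus CM. CMT also lay below IM, at -0.43 (-0.61 to -0.25), a difference under the 1.5-fold limit. CM, the library with the highest SLC2A4, had no more skeletal muscle signal than IM, and CMT, which held the muscle markers, had the lowest SLC2A4. The part of muscle RNA in the SLC2A4 differences was not tested.

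SLC2A1 (GLUT1), the carrier of basal glucose uptake in most cells, had the opposite order. Its values were 172 (IM), 149 (CM) and 233 (CMT) UQRPKM, with 186, 153 and 246 reads. The ratio was -0.21 (-0.53 to 0.10) for CM over IM and 0.65 (0.35 to 0.95) in CMT versus CM. A second deposited entry, LOC102164419, carries the gene ID that RefSeq now names SLC2A1, and its reads were counted apart. It had 78.4, 81.0 and 119 UQRPKM, with ratios of 0.05 (-0.30 to 0.40) for CM over IM and 0.55 (0.23 to 0.88) in CMT versus CM. Both entries were therefore highest in CMT, while their intervals for CM versus IM included 0.

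SLC2A4 and SLC2A1 took the largest shares of the summed SLC2 level in every library, but in different proportions. SLC2A4 took 29.3% (IM), 41.6% (CM) and 22.4% (CMT) of the sum. SLC2A1 took 31.4%, 23.1% and 43.7% in the same order. The level of SLC2A4 over that of SLC2A1 was 0.933 in IM (95% counting interval 0.790 to 1.11), 1.80 in CM (1.51 to 2.15) and 0.514 in CMT (0.438 to 0.603). These intervals did not overlap. In an alternative chosen after seeing the data, the UQRPKM levels of the 2 SLC2A1 entries were summed. The level ratios were then 0.641, 1.16 and 0.340 in the same order. Each entry is divided by its own recovered length, 724 and 1182 bases. If the entries are parts of 1 gene, the summed level is too high and these ratios are too low. With that summed level, SLC2A4 took 25.6%, 36.9% and 18.4% of the SLC2 sum, and SLC2A1 39.95%, 31.7% and 54.0%. CM kept the highest ratio and CMT the lowest. The ratio of 2 genes within a library is not affected by the scaling between libraries.

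The other SLC2 genes were lower. SLC2A3 (GLUT3), a high-affinity glucose carrier, had 109, 118 and 80.2 UQRPKM, and its ratio of -0.56 (-0.81 to -0.32) in CMT versus CM fell just short of 1.5-fold. SLC2A8 (GLUT8), which resides mostly inside the cell, had 20.7 (IM), 12.5 (CM) and 18.4 (CMT) UQRPKM, and was called lower in CM versus IM at -0.73 (-1.38 to -0.11). SLC2A13, a proton-coupled inositol carrier, had 11.4, 10.8 and 3.33 UQRPKM from 21, 19 and 6 reads. CMT was the low library for SLC2A13, with a ratio of -1.70 (-3.32 to -0.32) against CM. SLC2A12, SLC2A11 and SLC2A6 stayed within 1.5-fold over the libraries. The fructose carrier SLC2A5 and SLC2A7 were listed at 0.

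SLC2A2 (GLUT2), the carrier of hepatocytes, was singled out after its values were seen because liver markers stood out in CM. It had 1 (IM), 14 (CM) and 0 (CMT) reads, or 0.376, 5.53 and 0 UQRPKM. Against a floor of 3 reads in the CMT library, the CM level was 4.80-fold higher, a value that takes the CM reads as exact. The exact interval of the log2 ratio of CMT over CM had an upper end of -1.77. The only SLC2A2 reads above that floor were in the library with the liver markers. The part of liver RNA in this difference was not tested.

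**Figure D3:**
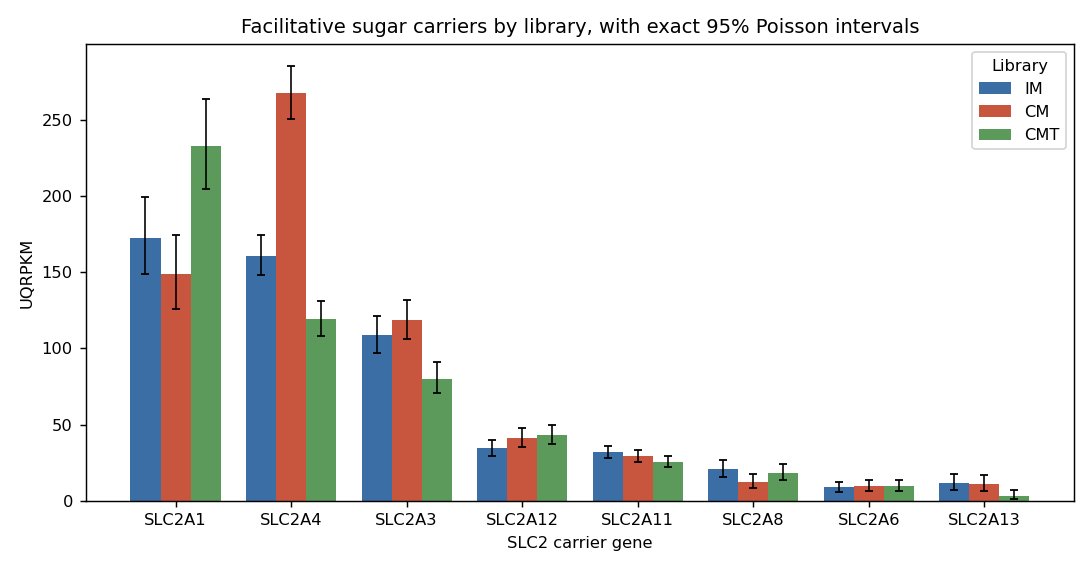
Levels in UQRPKM of the 8 SLC2 genes with at least 1 UQRPKM in every library. Bars are single libraries and error bars are exact 95% Poisson intervals of the reads, which cover counting error only. The SLC2A4 bar is tallest in CM (268) and the SLC2A1 bar is tallest in CMT (233).

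Genes beside the glucose carriers were followed in lists of the pathway. Of 17 genes of GLUT4 vesicle traffic, 1 was called lower for CM over IM and 1 lower in CMT versus CM, with 0 called in CMT versus IM. Over all mRNA genes 10.4% and 9.97% were called lower in the first 2 comparisons, and 8.38% and 9.53% higher. In CMT versus IM, 20.7% of all mRNA genes were called in either direction. RHOQ (TC10), a small GTPase of the insulin response in adipocytes, had 171 (IM), 257 (CM) and 133 (CMT) UQRPKM. Its ratios of 0.58 (0.42 to 0.75) for CM over IM and -0.94 (-1.12 to -0.77) in CMT versus CM had the same signs as those of SLC2A4, although the first lay under the limit. LRP1, a large endocytic receptor found in GLUT4 vesicles, was lower in CM at -0.61 (-0.64 to -0.57). TBC1D4 (AS160), the Rab regulator that holds the vesicles back, had 157, 131 and 159 UQRPKM and was not called.

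In the list of sugar and lactate handling, 1 of 11 genes with enough signal was called higher for CM over IM and 3 were called lower in CMT versus CM. The rule called 8.38% of all mRNA genes higher in the first comparison and 9.97% lower in the second. The lower calls included HK2 and HK3, which phosphorylate glucose. HK2, the hexokinase of insulin-sensitive tissues, had 246 (IM), 333 (CM) and 181 (CMT) UQRPKM, with ratios of 0.44 (0.32 to 0.55) and -0.88 (-1.01 to -0.76). HK3, a hexokinase of myeloid cells, had 34.0, 84.1 and 36.3 UQRPKM and ratios of 1.31 (1.05 to 1.57) and -1.21 (-1.47 to -0.96). HK2, HK3 and SLC2A4 were all highest in CM. Macrophage markers summed to 1860 (IM), 2071 (CM) and 1719 (CMT) UQRPKM, and 7 of 11 were highest in CM, 1 was at 0 throughout, and 3 were called higher in CM versus IM. Their part in the HK3 difference was not tested. HK1, the widely expressed hexokinase, stood between 562 and 644 UQRPKM and was not called.

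Adipocyte markers were also lower in CMT, where SLC2A4 was lowest. They summed to 155464 (IM), 148133 (CM) and 123459 (CMT) UQRPKM. Of the 10 genes, 3 were called lower in CMT versus CM, beside 9.97% of all mRNA genes. Their median ratio in that comparison was -0.43, compared with -1.16 for SLC2A4 and -0.02 over all mRNA genes. In CM versus IM their median was 0.04, beside -0.06 over all mRNA genes. There 1 of the 10, LEP, was called higher, beside 8.38% of all mRNA genes. LEP, the gene of the adipocyte hormone leptin, had 167, 502 and 156 UQRPKM and so was also highest in CM. The part of adipocyte content in the SLC2A4 difference was not tested.

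Sodium-coupled SLC5 genes were dominated by SLC5A6, which held 93.2% to 94.1% of their summed level. SLC5A6 was lower in CM than in IM by a ratio of -0.29 (-0.34 to -0.23) and hardly differed between CMT and CM at 0.02 (-0.04 to 0.07). SLC5A3, the myo-inositol carrier, had 31.2 (IM), 40.6 (CM) and 40.8 (CMT) UQRPKM. Its ratios of 0.38 (0.14 to 0.62) for CM over IM and 0.39 (0.15 to 0.62) in CMT versus IM were below the limit. SLC5A1 (SGLT1), a glucose carrier of the gut, was at 4.97, 2.47 and 5.33 UQRPKM from 19, 9 and 20 reads, and both of its calls had intervals that included 0. SLC5A10 (SGLT5), best known from kidney, had 18.9, 10.6 and 11.7 UQRPKM from 28, 15 and 17 reads. It was called lower in CM and in CMT than in IM, at -0.83 (-1.84 to 0.12) and -0.69 (-1.65 to 0.23). SLC5A2 and SLC5A9 were each called once from 12 and 13 reads in total, and SLC5A7 and SLC5A8 were listed at 0.

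Among the SLC16 genes, not all of which carry monocarboxylates, SLC16A1 held 58.5% to 64.3% of the summed level. It had 532 (IM), 569 (CM) and 448 (CMT) UQRPKM, from 1238, 1262 and 1022 reads. Its ratio was 0.10 (-0.02 to 0.21) for CM over IM and -0.34 (-0.46 to -0.22) in CMT versus CM, within 1.5-fold. SLC16A3 (MCT4), the lactate exporter of glycolytic cells such as fast muscle fibres, was far lower at 9.0, 5.86 and 13.9 UQRPKM from 29, 18 and 44 reads. It was called higher in CMT versus CM by 2.38-fold, with a log2 interval of 0.43 to 2.13. The intervals of its other calls, -0.62 for CM over IM and 0.63 in CMT versus IM, included 0. SLC16A3 was thus highest in the library that held the muscle markers, and their part in its level was not tested.

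SLC16A1 exceeded SLC16A3 by 59.0-fold in IM (40.9 to 88.5), 97.0-fold in CM (61.1 to 164) and 32.1-fold in CMT (23.8 to 44.5). The intervals of CM and CMT did not overlap, and the interval of IM overlapped both. LDHB, the lactate dehydrogenase subunit that favours pyruvate, stood between 19384 and 21482 UQRPKM, far above LDHA at 493 to 559, and neither was called. BSG, the partner protein that brings MCT1 and MCT4 to the membrane, was listed at 0 in every library. Such a listing need not mean absence, since 6 of the 66 ribosomal protein symbols had no reads in any library either.

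Other SLC16 genes had modest differences. SLC16A12, a creatine carrier, had 6.84, 10.8 and 6.11 UQRPKM and was highest in CM, with a ratio of 0.65 (-0.13 to 1.46) against IM and -0.82 (-1.67 to -0.0023) in CMT versus CM. SLC16A10 (TAT1), a carrier of aromatic amino acids, had 41.4, 28.6 and 35.3 UQRPKM. Its ratio of -0.53 (-1.03 to -0.05) in CM versus IM stayed under the limit. SLC16A5, SLC16A7, SLC16A13 and SLC16A14 stayed within 1.5-fold, and the calls of SLC16A9 rested on 12 reads in total.

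Glutamate and neutral amino acid carriers of the SLC1 family were led by SLC1A5, with 80.3% of the family sum in IM, 74.7% in CM and 78.2% in CMT. SLC1A5 was lower in CM than in IM at -0.21 (-0.28 to -0.14) and close to CM in CMT at -0.08 (-0.16 to -0.01). SLC1A3 (EAAT1), a glutamate carrier, had 299 (IM), 359 (CM) and 276 (CMT) UQRPKM. CM was its highest library, at 0.26 (0.14 to 0.39) against IM and -0.38 (-0.51 to -0.25) in CMT versus CM, below the limit each time. The level of SLC1A5 over SLC1A3 was 4.16 in IM (3.88 to 4.48), 3.01 in CM (2.80 to 3.23) and 3.69 in CMT (3.42 to 3.98). Its interval in CM did not overlap the others. SLC1A1 (EAAT3) had 3.23, 4.14 and 5.68 UQRPKM and was called in CMT versus IM from 18 and 31 reads, at 0.81 (-0.07 to 1.74).

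Heteromeric carriers pair an SLC3 heavy chain with an SLC7 light chain. SLC3A2 had 525 (IM), 535 (CM) and 424 (CMT) UQRPKM, with a ratio of -0.34 (-0.49 to -0.19) in CMT versus CM that was under the limit. Its light chain SLC7A7 (y+LAT1), an exchanger of cationic for neutral amino acids, varied least of the 44 genes, at 111, 113 and 113 UQRPKM. The ratio of highest to lowest library was 1.02 for SLC7A7. The other heavy chain, SLC3A1 (rBAT), is a kidney and gut protein and had only 1.26, 2.20 and 2.71 UQRPKM. It was called higher in CM and in CMT than in IM, at 0.81 (-0.48 to 2.18) and 1.11 (-0.11 to 2.43), from at most 19 reads in a library. Its partner SLC7A9 had 0, 1 and 2 reads.

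SLC7A10 (ASC-1), a small neutral amino acid carrier used as a surface marker of white adipocytes, had 70.9 (IM), 65.9 (CM) and 99.9 (CMT) UQRPKM. CMT was the high library, with a ratio of 0.60 (0.31 to 0.89) against CM from 163 and 254 reads. SLC36A2 (PAT2), a proton-coupled carrier used as a surface marker of beige and brown adipocytes, had 229, 234 and 264 UQRPKM and was not called. The level of SLC36A2 over SLC7A10 was 3.22 in IM (2.59 to 4.01), 3.55 in CM (2.83 to 4.45) and 2.64 in CMT (2.17 to 3.21), with overlapping intervals. SLC7A10 was therefore higher in CMT while the summed adipocyte markers were lowest there.

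The cationic amino acid carriers SLC7A1 and SLC7A2 were both called lower in CM than in IM. SLC7A2 (CAT2) had 17.1 (IM), 8.52 (CM) and 11.6 (CMT) UQRPKM from 78, 37 and 52 reads. It was called lower in CM versus IM at -1.01 (-1.61 to -0.42), a 2.01-fold difference, and it was the only lower call of that comparison that also passed the exact test. SLC7A1 (CAT1), the widespread arginine and lysine carrier, had 25.8, 16.9 and 18.9 UQRPKM, with a ratio of -0.61 (-1.29 to 0.04) in CM versus IM. Between CMT and CM the ratios were 0.45 (-0.18 to 1.10) for SLC7A2 and 0.16 (-0.55 to 0.88) for SLC7A1, and both intervals included 0. The cystine carrier SLC7A11, SLC7A3 and SLC7A4 were listed at 0.

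Amino acid carriers of the SLC36 family had calls in 1 gene only, SLC36A4 (PAT4), which carries proline and tryptophan. It had 11.2 (IM), 6.83 (CM) and 17.0 (CMT) UQRPKM from 43, 25 and 64 reads. CM was the lowest library and CMT the highest. The ratio was -0.71 (-1.49 to 0.03) for CM over IM and 1.32 (0.63 to 2.04) in CMT versus CM, and CMT exceeded IM at 0.60 (0.02 to 1.20). SLC36A1 (PAT1), a lysosomal amino acid exporter, stayed at 76.6, 69.8 and 72.4 UQRPKM.

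In the SLC38 family of sodium-coupled neutral amino acid carriers, SLC38A3 and SLC38A1 were called higher in CM versus IM. SLC38A3 (SNAT3), a glutamine carrier of liver, kidney and brain, had 10.21 (IM), 23.4 (CM) and 15.2 (CMT) UQRPKM from 39, 85 and 57 reads. The ratio was 1.19 (0.63 to 1.78) for CM over IM and -0.62 (-1.13 to -0.12) in CMT versus CM. SLC38A4 (SNAT4), a carrier of hepatocytes chosen after its values were seen, had 3 (IM), 19 (CM) and 2 (CMT) reads. Its ratio in CM versus IM was 2.73 (0.97 to 5.13). It was not called, because IM and CMT lay under 1 UQRPKM. SLC38A3 and SLC38A4 were highest in the library that held the liver markers, whose part in these differences was not tested.

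SLC38A1 (SNAT1), a glutamine carrier, had 2.03, 3.31 and 5.97 UQRPKM from 9, 14 and 26 reads and was called higher in CMT versus IM at 1.56 (0.42 to 2.84). Its calls in the other comparisons, 0.71 (-0.60 to 2.10) for CM over IM and 0.85 (-0.14 to 1.90) for CMT over CM, had intervals that included 0. SLC38A2 (SNAT2), the carrier that cells induce when amino acids are scarce, had 28.4 (IM), 27.9 (CM) and 40.6 (CMT) UQRPKM. Its ratio in CMT versus CM was 0.54 (0.27 to 0.81), under the limit. SLC38A10 stood at 369, 332 and 333 UQRPKM with no call. SLC38A9, the lysosomal arginine sensor, SLC38A5 and SLC38A6 also stayed within 1.5-fold.

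SLC43A2 (LAT4), which lets large neutral amino acids leave the cell, had 225 (IM), 168 (CM) and 199 (CMT) UQRPKM from 1269, 902 and 1100 reads. It was lower in CM at -0.42 (-0.55 to -0.30) and higher in CMT versus CM at 0.25 (0.12 to 0.37). Neither difference reached 1.5-fold.

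Enzymes and sensors that handle the carried amino acids gave 3 lower calls of 17 genes with enough signal in CM versus IM, 1 higher and 3 lower of 19 in CMT versus CM, and 2 lower of 17 in CMT versus IM. Over all mRNA genes, the shares were 10.4% lower in the first comparison, 9.53% higher and 9.97% lower in the second, and 11.9% lower in the third. GLUL, the enzyme that makes glutamine, had the highest levels of those called. It had 14137 (IM), 6069 (CM) and 12942 (CMT) UQRPKM, with ratios of -1.22 (-1.26 to -1.18) and 1.09 (1.05 to 1.13). CM was thus the lowest library for GLUL and the highest for the glutamine carrier SLC38A3. Other glutamine carriers differed from SLC38A3: the far more abundant SLC1A5 was lower in CM than in IM at -0.21, and SLC38A1 was highest in CMT. SESN2, a leucine sensor, and BCAT1, a branched-chain aminotransferase, were also called lower in CM versus IM, at -0.64 (-1.0 to -0.28) and -0.96 (-1.73 to -0.23). PSAT1, an enzyme of serine synthesis, was lower in CMT versus CM at -0.61 (-0.68 to -0.54). The arginases ARG1 and ARG2 were called lower in that comparison from no more than 11 reads in a library. Both had the most reads in CM, the library that held the liver markers, whose part in these calls was not tested. NOS3, the endothelial enzyme that turns arginine into nitric oxide, was called lower in CMT versus IM at -0.68 (-0.77 to -0.60). In that comparison the endothelial markers had a median ratio of -0.39, beside -0.08 for all mRNA genes. Of 9 tested, 3 (EGFL7, ESAM and ROBO4) were called lower. PECAM1, the endothelial marker with the highest level, was instead higher in CMT at 0.13 (0.10 to 0.15). TEK stood at 0.06 (-0.05 to 0.17). The part of endothelial content in the NOS3 difference was not tested.

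Over the 3 libraries, 11 transporter genes stood 1.5-fold apart from both others in at least 1 library. SLC2A4, SLC16A12 and SLC38A3 were higher in CM, or 3 of 44 beside 3.48% of all mRNA genes. SLC5A1, SLC16A3, SLC16A9 and SLC36A4 were lower in CM, or 4 of 44 beside 4.23%. SLC16A3, SLC36A4 and SLC38A1 were higher in CMT, beside 3.84%. SLC2A13 was lower in CMT, beside 4.88%. SLC5A10 was higher in IM, beside 4.22%, and SLC3A1 and SLC38A1 were lower in IM, beside 3.54%. SLC16A3, SLC36A4 and SLC38A1 are counted under 2 patterns each, since they were highest in CMT and lowest in another library. With so few genes per pattern, the shares are not results about the transporters as a set. At the other end, 25 of the 44 genes stayed within 1.5-fold across all libraries, or 56.8%, beside 67.2% of all mRNA genes.

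**Figure D4:**
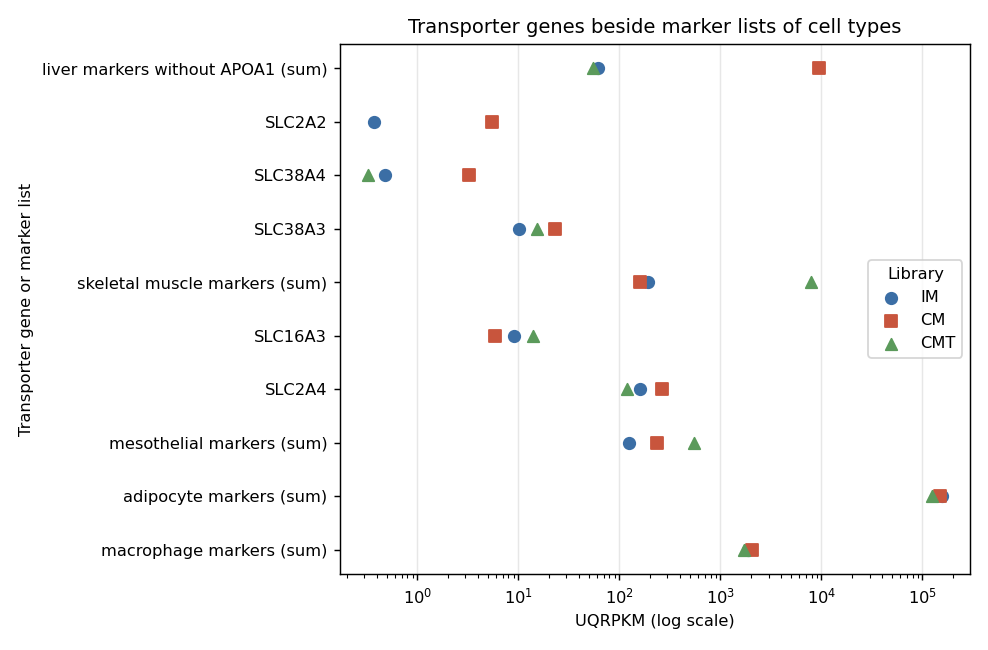
Levels in UQRPKM on a log axis of 5 transporter genes and of summed marker lists of cell types, with 1 point per library. SLC2A2 has no CMT point because it is listed at 0 there. The liver markers and SLC2A2, SLC38A4 and SLC38A3 are highest in CM, and the muscle markers and SLC16A3 are highest in CMT, whereas SLC2A4 is highest in CM.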

How the data were processed

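Visceral fat RNA of intact (IM), castrated (CM) and testosterone-treated castrated (CMT) pigs was sequenced from 1 pooled library per group. After read filtering and alignment to the pig genome with MapSplice, the authors deposited modified RPKM values (UQRPKM), which divide reads per kilobase by the upper quartile of the library. The counting tool, annotation and handling of multi-mapped reads are not given in the sources used here. Values were as deposited and no sequence or coordinate was used.

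Values were taken as reads times a constant of 100000, divided by the upper quartile and by the length in bases. Whole reads were recovered as the smallest numbers that gave the values of all libraries at a common length, with upper quartiles of 149, 142 and 146 for IM, CM and CMT. They fitted all 20838 genes above 0 within a relative tolerance of 1e-08. Reads sharing a common factor can be underestimated, which widens intervals. At the median recovered length of the transporters, 2209 bases, 3 reads equal 0.911, 0.956 and 0.930 UQRPKM.

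The call rule (1.5-fold, at least 1 UQRPKM in both libraries) takes the fold and minimum from the study without its test. The exact binomial test used Benjamini-Hochberg adjustment over all mRNA genes with reads, at a limit of 0.05. Python 3.11.15 and SciPy 1.17.1 were used, and the steps were tested on simulated data. Full values are given for members called with at least 30 reads in all, the 10 most abundant, well-known members of each kind, and called genes of the pathway lists. SLC7A5, which that rule also lists, is not analysed here under its symbol. The members and lists were chosen with earlier results of these data known. Alternatives were 2 other scalings, a pseudocount, other minimums, other folds and the exact test. Lists of lymphocyte, endothelial, adrenal and red cell markers were also summed. A few genes are counted in totals but not reported here by name.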

Additional observations from a re-analysis of the deposited data

How the results depend on the processing

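Each group is 1 library of pooled RNA, so no library could be left out and no paired analysis was possible. Counts of transporter genes called higher and lower were 5 and 8 for CM over IM, 7 and 4 for CMT over CM, and 7 and 3 for CMT over IM. In that order, a minimum of 10 UQRPKM left 2 and 3, 2 and 2, and 1 and 1, and the exact test left 2 and 1, 4 and 2, and 1 and 1. A fold of 2 left 1 and 3 for CM over IM, 4 and 2 for CMT over CM, and 3 higher for CMT over IM. A pseudocount of 1 UQRPKM left 3 higher for CM over IM and 4 higher in CMT versus IM. A minimum of 30 reads left 3 higher for CM over IM and 1 lower in CMT versus IM. No minimum raised the higher calls in CMT versus CM to 13. Total-read scaling gave 5 and 6, 10 and 3, and 10 and 2 in the order of comparisons above. Median-ratio scaling gave 5 and 6, 7 and 4, and 9 and 3. The stricter settings can only remove calls by construction.

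The median ratio in CM versus IM, -0.02, changed sign to 0.034 with total-read scaling and to 0.038 with median-ratio scaling. The median of CMT over CM, 0.04, became 0.090 with total-read scaling and 0.076 with no minimum. Total-read scaling shifted every ratio of CMT versus IM by 0.11. With a lower fold limit, genes apart from both other libraries were 5 higher and 6 lower in IM, and 9 higher and 3 lower in CMT. With a fold of 2 there were 0 higher and 0 lower in IM, 0 higher and 2 lower in CM, and 0 higher in CMT. Total-read scaling gave 0 higher in IM and 6 higher in CMT. Of the checks of single ratios of named transporters, 227 stayed within their counting interval, and 7 moved beyond it, all under another scaling and all in SLC5A6, SLC1A5 or SLC38A10. The level of SLC2A4 over SLC2A1 moved in all 3 libraries when the levels of the 2 SLC2A1 entries were summed. Depth limits the genes with few reads: 24 of the 66 had under 30 reads over all libraries.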

Other observations

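Several transporter genes carry a numbered LOC name in the deposited values and so lie outside the 66. Of 19902 LOC entries, 7044 had a gene ID in the RefSeq table, and 9 of these are now named as members of the 9 families. Of the 9, 6 were at 0 in every library, including second entries for SLC2A7 and SLC7A11. LOC100522330, now SLC7A8 (LAT2), a light chain of SLC3A2, had 23.8 (IM), 14.1 (CM) and 19.7 (CMT) UQRPKM. Its log2 ratio was -0.76 (-1.20 to -0.33) for CM over IM and 0.48 (0.03 to 0.94) in CMT versus CM. LOC100624487, now SLC2A10 (GLUT10), had 35.2, 35.6 and 24.8 UQRPKM and a ratio of -0.53 (-0.92 to -0.13) in CMT versus CM. The entry now named SLC7A5 was at 0 and is of a class other than mRNA.

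Other marker lists gave the following sums. Lymphocyte markers summed to 861 (IM), 700.3 (CM) and 721 (CMT) UQRPKM. Endothelial markers summed to 11239, 9569 and 9960, and 8 of 10 were highest in IM. Adrenal cortex markers summed to 366, 620 and 399, with 3 of 7 at 0 throughout. Nearly all of that sum was 1 gene, HSD3B1, with 336 (IM), 592 (CM) and 369 (CMT) UQRPKM. Red cell markers summed to 4593, 4238 and 2364, and all 4 were highest in IM.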
